A study of Mus musculus with 9 samples.

Results

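The 10 genes described here code for matricellular proteins and for proteins of elastic fibres and microfibrils: Ccn2 (named Ctgf in the array files), Ccn1 (named Cyr61 there), Tnc, Postn, Fn1, Thbs2, Sparcl1, Fbln5, Eln and Fbn1. They were chosen by name, with earlier results of these data known, and were matched to the gene names of the array files. They are 10 of 29410 genes tested, out of 37316 gene names on the array. The arrays carry 22 probes for them, of which 20 passed the filter on dim probes. All 10 genes are also in the deposited log2 matrix.

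Megakaryocytes of the mouse bone marrow (mMKs) were collected from male wild-type C57BL/6 mice, whose age is not given in the labels. By the methods, Ctrl mice were sham-irradiated, and the other groups were taken 1 day (1 dpi) and 3 days (3 dpi) after a total-body dose of 5 Gy of γ-rays (IR). Each group had 3 arrays, 9 in all, and by the labels each repeat of the experiment used other donors. The cells had been enriched by selection for CD41 and then CD42d, so each value is that of a bulk sample, in which fewer cells of a type and less RNA per cell cannot be told apart.

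Matricellular proteins are secreted into the extracellular matrix, where they act on cells through integrins and other receptors and by binding growth factors, and contribute little to its mechanical structure. Elastic fibres consist of a core of cross-linked elastin on a scaffold of fibrillin microfibrils, and fibulins help to assemble them. In bone marrow much of this matrix is made by stromal, vascular and bone-forming cells, while megakaryocytes deposit and store some of it, fibronectin included.

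Levels are given as the log2 intensity of a probe minus the 75th percentile of its array, so that 0 is the 75th percentile and a difference of 1 is a 2-fold difference. A gene was called when the Benjamini-Hochberg adjusted p of the limma fit over all genes was under 0.05 and the change was at least 2-fold. Where a gene has several probes, the one with the highest mean stands for it. Levels of different probes are compared only for that choice, to name the brightest gene of a list and in the sums over a list.

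At 1 dpi 6 of the 10 genes were called higher than in Ctrl and none lower, against 12.3% of all 29410 genes called higher and 2.87% called lower. At 3 dpi 9 of the 10 were called higher and none lower, against 6.98% and 1.82% of all genes. Set against 1 dpi, 4 of the 10 were called higher at 3 dpi and none lower, against 3.97% of all genes called higher and 4.82% called lower. The 10 genes were chosen with earlier results of these data known, so these counts beside the shares are a description, not a test. The median log2 fold change of the 10 genes was 2.02 at 1 dpi and 2.89 at 3 dpi, beside 0.25 and 0.11 over all genes. From 1 to 3 dpi it was 0.91, beside -0.11 over all genes. With the background corrected by normexp with an offset of 50 and the arrays then quantile normalized (normexp and quantile normalization, a change of both choices), the median of the 10 genes was 1.07 at 1 dpi and 1.95 at 3 dpi. The 3 comparisons share their arrays, those with Ctrl the 3 Ctrl arrays. The filter favours a difference in a gene that passed only through the group where it is high: of the 10, Thbs2 passed through 3 dpi alone and Eln through the irradiated groups. Of the other 8 genes, well above background on all 9 arrays, 6 were called higher at 1 dpi, 8 at 3 dpi and 3 from 1 to 3 dpi.

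The scaling between arrays moved the median of all genes, and the values above are to be read relative to it. With each array scaled to its own median the median of all genes was -0.07 at 1 dpi and -0.01 at 3 dpi, and the share of calls that were higher was 48.9% at 1 dpi in place of 81.1%. That share was 56.3% with quantile normalization, 68.8% with normexp and quantile normalization and 50.3% in the deposited matrix. For 3 dpi against Ctrl the share was 79.4%, and 68.8% in the deposited matrix; for 3 dpi against 1 dpi it was 45.2%, and 67.2% with array medians, 62.9% with quantile normalization and 64.1% in the deposited matrix. The 10 genes had 6 calls at 1 dpi with quantile normalization and with array medians, and 5 with normexp and quantile normalization. At 3 dpi they had 9, 9 and 7 calls in these scalings, and 4, 6 and 3 from 1 to 3 dpi.

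**Figure D1:**
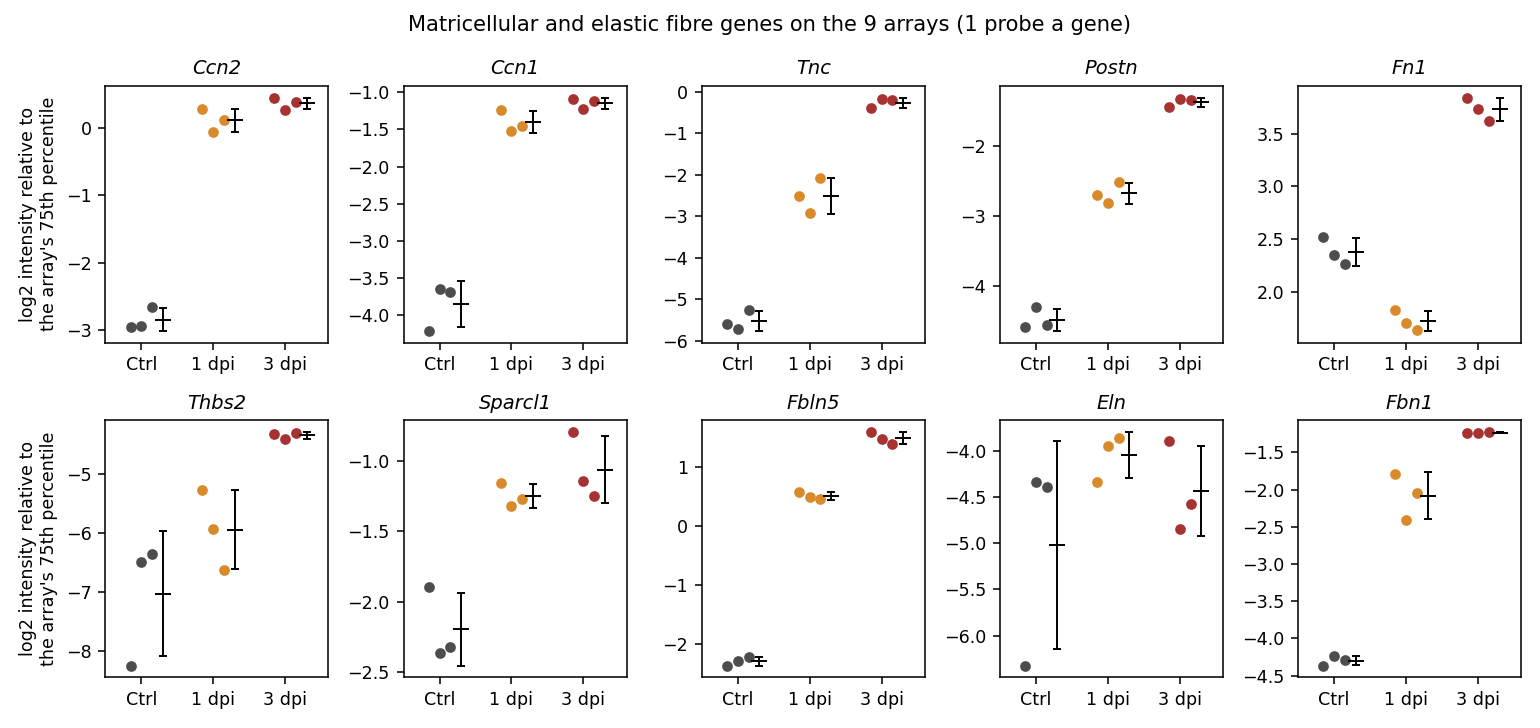
Level of each gene on the 9 arrays, as log2 intensity relative to the 75th percentile of the array, for the probe that stands for the gene. Points are arrays, and the bar beside them is the mean ± SD of 3 arrays. Ccn2, Ccn1, Tnc, Postn, Sparcl1, Fbln5 and Fbn1 stood higher on every irradiated array than on every Ctrl array, Fn1 was lowest at 1 dpi, and Eln overlapped between Ctrl and 3 dpi.

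Ccn2 and Ccn1 belong to the CCN family of matricellular proteins, bind integrins and are widely used as readouts of the transcriptional regulators YAP and TAZ. Ccn2 was at -2.95, -2.94 and -2.66 on the Ctrl arrays, at 0.28, -0.06 and 0.12 at 1 dpi and at 0.44, 0.27 and 0.39 at 3 dpi. Every irradiated array stood above every Ctrl array, and the arrays of 1 and 3 dpi overlapped. The log2 fold change was 2.96 ± 0.12 (SE) at 1 dpi, which is 7.79-fold (adjusted p = 1.92e-06), and 3.21 ± 0.12 at 3 dpi (adjusted p = 1.01e-06). Between 1 and 3 dpi it was 0.25 ± 0.12 and was not called (adjusted p = 0.119).

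Ccn1 followed a similar course. It was at -4.22, -3.65 and -3.70 in Ctrl, at -1.23, -1.51 and -1.45 at 1 dpi and at -1.08, -1.23 and -1.12 at 3 dpi. The irradiated arrays were all above the Ctrl arrays, with the lowest level on Ctrl replicate 1. Its log2 fold change was 2.46 ± 0.16 (SE) at 1 dpi (adjusted p = 1.73e-05) and 2.71 ± 0.16 at 3 dpi (adjusted p = 1.06e-05), with 0.25 ± 0.16 between them (adjusted p = 0.228). With normexp and quantile normalization Ccn1 was at 1.4992 at 1 dpi and 1.86 at 3 dpi. The probes lie at chr10:24318281-24318340 for Ccn2 and chr3:145310187-145310246 for Ccn1 in mm9, the build of the array files.

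Tnc, tenascin C, is a large matrix glycoprotein of embryonic and healing tissue that loosens cell attachment. It has 2 probes. The probe that stands for the gene was at -5.60, -5.73 and -5.26 in Ctrl, at -2.52, -2.93 and -2.08 at 1 dpi and at -0.40, -0.18 and -0.21 at 3 dpi. The groups did not overlap, and the order was Ctrl, 1 dpi, 3 dpi. The log2 fold change was 3.02 ± 0.22 (SE) at 1 dpi (adjusted p = 3.12e-05), 5.26 ± 0.22 or 38.4-fold at 3 dpi (adjusted p = 1.88e-06), and 2.25 ± 0.22 from 1 to 3 dpi (adjusted p = 0.000206). With normexp and quantile normalization Tnc was at 1.39 at 1 dpi and 3.41 at 3 dpi.

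The other probe of Tnc was not well above background on any of the 3 Ctrl arrays, so only a bound can be given for it. It was at -2.60, -3.11 and -2.81 at 1 dpi and at -2.39, -2.67 and -2.48 at 3 dpi, and these groups overlapped. The bound sets the mean of the bright group against the mean, in the dim group, of the higher of each array's lowest signal well above background and the probe's own signal. Tnc by this probe was at least 13.5-fold higher at 1 dpi (adjusted p over all probes = 1.00e-06) and at least 16.9-fold higher at 3 dpi (adjusted p = 5.57e-07). The probe passed the filter only through the irradiated groups, where it is high, so these calls are not support for a rise. Between 1 and 3 dpi it changed by 0.33 ± 0.20 (SE) and was not called (adjusted p = 0.213), so the further rise at 3 dpi was seen by 1 of the 2 probes. The deposited matrix holds this probe for Tnc, at 0.51 from 1 to 3 dpi, and with the mean of its probes Tnc was at 1.29 from 1 to 3 dpi. Its sequence follows together with those of Fn1 and Thbs2 that also span more of the genome than their own 60 bases, and so cross from exon to exon; those of Tnc and Fn1 are shown because the probes of each of these genes gave different values here, that of Thbs2 because its only probe is of this kind, and no base is in capitals.
Tnc probe 2, chr4:63674248-63675011: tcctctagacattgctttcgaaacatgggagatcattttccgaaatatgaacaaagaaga
Fn1 probe 1, chr1:71637422-71639659: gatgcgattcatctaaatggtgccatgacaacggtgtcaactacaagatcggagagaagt
Fn1 probe 4, chr1:71694694-71695800: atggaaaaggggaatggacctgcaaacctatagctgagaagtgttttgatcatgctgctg
Thbs2 probe, chr17:14804526-14805789: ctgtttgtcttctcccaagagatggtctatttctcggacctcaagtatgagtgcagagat

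Postn, periostin, binds integrins and collagen and is made by fibroblasts and osteoblasts. Its brightest probe was at -4.59, -4.31 and -4.57 in Ctrl, at -2.70, -2.82 and -2.51 at 1 dpi and at -1.44, -1.32 and -1.34 at 3 dpi. The groups did not overlap, with 3 dpi the highest. Against Ctrl it rose by 1.81 ± 0.11 (SE) at 1 dpi (adjusted p = 1.21e-05), 3.12 ± 0.11 at 3 dpi (adjusted p = 7.75e-07) and 1.31 ± 0.11 between them (adjusted p = 0.000104). With normexp and quantile normalization Postn was at 0.86, under 2-fold, at 1 dpi and at 2.04 at 3 dpi. The other 3 probes gave 1.67, 1.48 and 1.36 at 1 dpi and 2.56, 1.92 and 1.0967 at 3 dpi. From 1 to 3 dpi they gave 0.89, 0.45 and -0.26, none of them called, so the difference between the times was called by 1 of the 4 probes of Postn. With the mean of its probes Postn was at 0.60 from 1 to 3 dpi, under 2-fold and not called. Probe 4 of Postn, which matches no RefSeq accession, was well above background on 2 of 3 arrays in Ctrl and at 1 dpi, and was not called (adjusted p = 0.0916 and 0.214).

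Fn1, fibronectin, is an adhesive matrix protein that megakaryocytes make and also take up from plasma, and its 4 probes differed in direction at 1 dpi. The probe that stands for it was at 2.53, 2.35 and 2.26 in Ctrl, at 1.83, 1.71 and 1.64 at 1 dpi and at 3.84, 3.74 and 3.62 at 3 dpi. Every 1 dpi array was below every Ctrl array and every 3 dpi array above. The log2 fold change was -0.66 ± 0.10 (SE) at 1 dpi, under 2-fold and so not called (adjusted p = 0.000924), 1.35 ± 0.10 at 3 dpi (adjusted p = 3.01e-05) and 2.01 ± 0.10 from 1 to 3 dpi (adjusted p = 1.22e-05).

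Probe 2 of Fn1, at chr1:71650690-71650749 and without a RefSeq accession, was at -3.65, -3.48 and -3.49 in Ctrl and at -4.83, -4.93 and -5.06 at 1 dpi. It fell by 1.40 on the log2 scale (SE 0.10, adjusted p = 3.51e-05). Probe 1 of Fn1 had a log2 fold change of -0.03 ± 0.10 (adjusted p = 0.792) and probe 4 of Fn1 one of 0.37 ± 0.13 (adjusted p = 0.0426), neither of them called. At 3 dpi all 4 probes were called higher than in Ctrl, by 1.54, 1.30, 1.35 and 1.20. From 1 to 3 dpi probes 1 to 3 were called higher, and probe 4 of Fn1, at 0.83, was under 2-fold. The deposited matrix holds probe 2 for Fn1, and the gene was called lower at 1 dpi there, by -1.80.

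**Figure D2:**
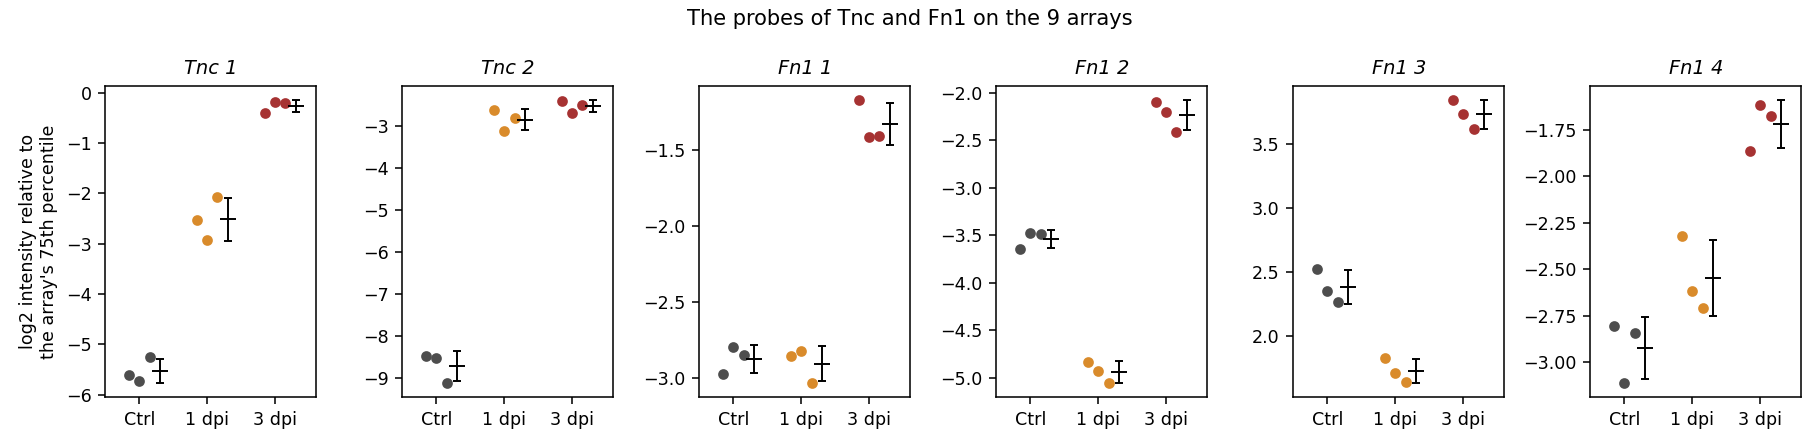
The 2 probes of Tnc and the 4 probes of Fn1 on the 9 arrays, as log2 intensity relative to the 75th percentile of the array. Points are arrays, bars the mean ± SD of 3 arrays. Tnc probe 2 was not well above background in Ctrl, and of the Fn1 probes only probe 2 was called lower at 1 dpi, while all 4 were higher at 3 dpi.

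Thbs2, thrombospondin-2, is an angiogenesis inhibitor that binds matrix metalloproteinases. Its probe was at -8.24, -6.48 and -6.34 in Ctrl, at -5.27, -5.92 and -6.61 at 1 dpi and at -4.31, -4.40 and -4.30 at 3 dpi. It was well above background on 2 Ctrl arrays, 1 array at 1 dpi and all 3 at 3 dpi, and Ctrl and 1 dpi overlapped. It passed the filter through 3 dpi alone, so its calls there are not support for a rise. Thbs2 was at a log2 fold change of 1.09 ± 0.53 (SE) at 1 dpi and was not called (adjusted p = 0.112), 2.69 ± 0.53 at 3 dpi (adjusted p = 0.00605) and 1.60 ± 0.53 from 1 to 3 dpi (adjusted p = 0.0410). At 1 dpi it was 0.48 without Ctrl replicate 1, 0.37 with quantile normalization and 0.04 with normexp and quantile normalization, and with the last of these it was 0.67 at 3 dpi, under 2-fold, and 0.63 from 1 to 3 dpi. The call from 1 to 3 dpi was lost in 5 of the 9 fits that leave out 1 array (adjusted p = 0.0913 without 1 dpi replicate 2, 0.123 without 1 dpi replicate 3, 0.0936, 0.0937 and 0.101 without each 3 dpi array).

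Sparcl1, a relative of SPARC found in vessel walls and brain, was printed in 10 spots on each array. It was at -1.90, -2.37 and -2.32 in Ctrl, at -1.16, -1.32 and -1.27 at 1 dpi and at -0.80, -1.14 and -1.25 at 3 dpi. Every irradiated array was above the Ctrl arrays, and 1 and 3 dpi overlapped. The log2 fold change was 0.94 ± 0.16 (SE) at 1 dpi, just under 2-fold (adjusted p = 0.00178) and 0.63 with array medians, and 1.13 ± 0.16 at 3 dpi (adjusted p = 0.00115). Without Ctrl replicate 1, the sole array of its slide, the change at 1 dpi was 1.09 and was called, and without 3 dpi replicate 1 that at 3 dpi was 0.9991 and was not.

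Fbln5, fibulin-5, links elastin to cells and microfibrils and is needed for elastic fibre assembly. It was at -2.37, -2.30 and -2.22 in Ctrl, at 0.58, 0.49 and 0.45 at 1 dpi and at 1.59, 1.48 and 1.39 at 3 dpi. The groups were far apart, with spreads of 0.08, 0.06 and 0.10 (SD, n = 3). Fbln5 rose by 2.80 ± 0.08 (SE) at 1 dpi (adjusted p = 3.92e-07) and 3.78 ± 0.08 or 13.7-fold at 3 dpi (adjusted p = 1.58e-07). From 1 to 3 dpi it was 0.98 ± 0.08, with an adjusted p of 8.16e-05 but under 2-fold, and a second probe, which overlaps it, gave 1.05 and was called. With array medians the probe that stands for Fbln5 was called from 1 to 3 dpi as well, at 1.17. That probe has no RefSeq accession. The overlapping probe has one and gave 2.91 at 1 dpi and 3.96 at 3 dpi against Ctrl. A further Fbln5 probe was not well above background on any array.

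Eln, elastin, forms the core of the elastic fibre. It has 2 probes, of which the brighter was at -6.32, -4.34 and -4.40 in Ctrl, at -4.33, -3.95 and -3.86 at 1 dpi and at -3.89, -4.84 and -4.58 at 3 dpi. Ctrl replicate 1 stood apart, and Ctrl and 3 dpi overlapped. The log2 fold change was 0.97 ± 0.53 (SE) at 1 dpi (adjusted p = 0.149) and 0.58 ± 0.53 at 3 dpi (adjusted p = 0.436), neither called, and without Ctrl replicate 1 they were 0.32 and -0.07. With quantile normalization Eln was at 0.50 at 1 dpi, and at 0.21 with normexp as well; without Ctrl replicate 2 it was at 0.92 at 3 dpi, and without Ctrl replicate 3 at 0.89.

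The dimmer Eln probe was at -8.29, -6.82 and -6.63 in Ctrl, at -5.17, -5.20 and -5.18 at 1 dpi and at -4.50, -5.20 and -5.26 at 3 dpi. It was well above background on 1 of 3 Ctrl arrays and on all 6 irradiated arrays, so it passed the filter only through the groups where it is high, and its calls are not support for a rise. This probe, which the deposited matrix holds, was called higher at 1 dpi, by 2.06 ± 0.42 (SE; adjusted p = 0.00421), and at 3 dpi, by 2.26 ± 0.42 (adjusted p = 0.00444). With the mean of its probes Eln was at 1.52 at 1 dpi (called, adjusted p = 0.0282) and 1.42 at 3 dpi (not called, adjusted p = 0.0536). In the deposited matrix Eln was called higher at both times, by 1.37 and 1.83. That made 7 of the 10 genes higher at 1 dpi and 10 at 3 dpi there, beside 1763 and 1625 of 20060 genes. Of these calls, those of Eln and Tnc at both times and of Thbs2 at 3 dpi are not support for a rise. Their probes in the matrix passed the filter only through groups where they are high.

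Fbn1, fibrillin-1, is the main protein of microfibrils and holds latent TGF-β in the matrix. It was at -4.37, -4.24 and -4.29 in Ctrl, at -1.78, -2.41 and -2.05 at 1 dpi and at -1.23, -1.24 and -1.23 at 3 dpi. The groups did not overlap. Fbn1 rose by 2.22 ± 0.14 (SE) at 1 dpi (adjusted p = 1.73e-05) and 3.06 ± 0.14 at 3 dpi (adjusted p = 3.28e-06), and 0.85 ± 0.14 from 1 to 3 dpi was under 2-fold (adjusted p = 0.00241). With array medians that change of Fbn1 was 1.04 and was called, and with normexp and quantile normalization Fbn1 was at 1.28 at 1 dpi and 2.07 at 3 dpi. A second probe gave 2.69 and 3.67 against Ctrl, and a further probe without a RefSeq accession was well above background on only 1 of the 9 arrays.

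Over the 20 probes that passed the filter, 12 were called higher and 1 lower at 1 dpi, against 11.6% and 3.02% of 44300 probes. At 3 dpi 18 were called higher and 0 lower, against 6.58% and 1.86%, and the 2 that were not called were the probe of Postn without a RefSeq accession and the brighter Eln probe. From 1 to 3 dpi 7 were called higher and 0 lower, against 3.75% and 5.03%. Of these probes 5 (1 each of Tnc, Postn and Thbs2, and the 2 of Eln) were not well above background on some array and passed through a group where they are higher. Of the other 15, 10 were called higher and 1 lower at 1 dpi, 15 higher at 3 dpi, and 6 higher from 1 to 3 dpi. An exact permutation test of 3 against 3 arrays cannot go below p = 0.10, so none is given for single genes.

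**Figure D3:**
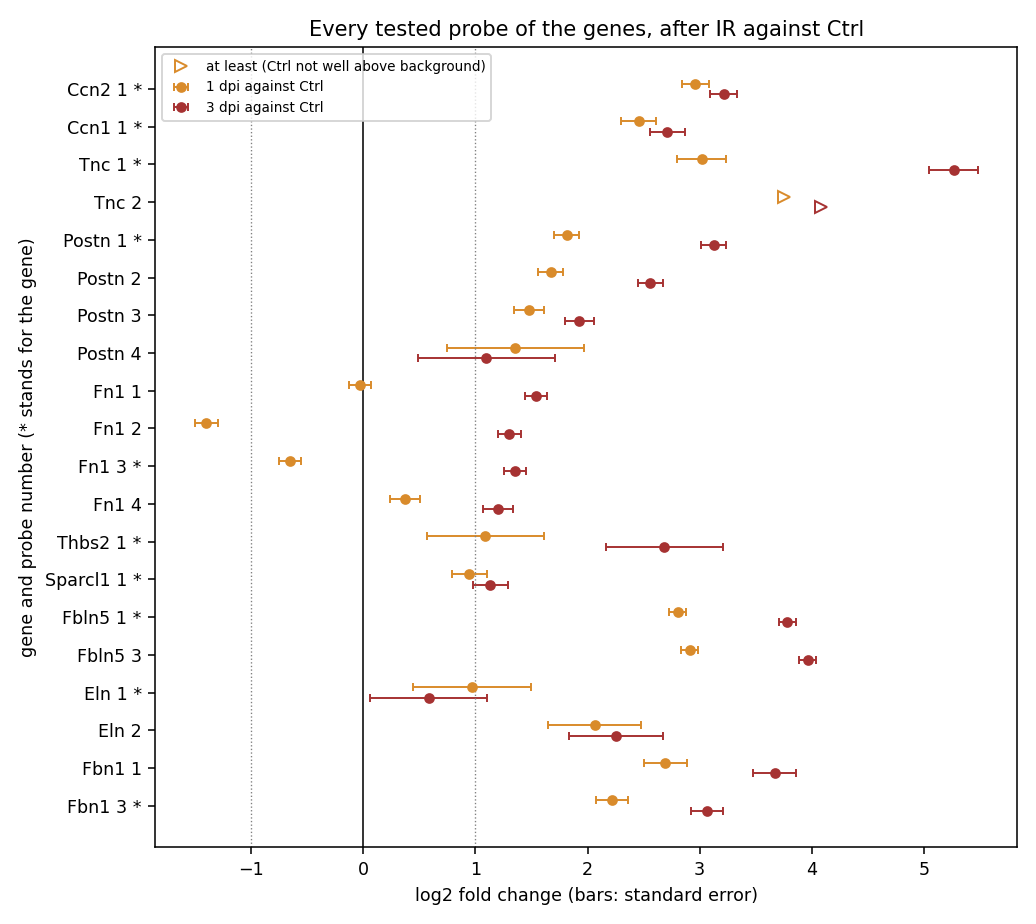
Log2 fold change of each tested probe at 1 dpi and 3 dpi against Ctrl, with the standard error of the fit; stars mark the probe that stands for the gene, and dotted lines a 2-fold change. Open triangles are lower bounds for Tnc probe 2. Of the 20 probes 18 were called higher at 3 dpi, and the Fn1 probes spread from -1.40 to 0.37 at 1 dpi.

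Ctrl replicate 1 lay alone on slide 1 and was scanned apart, and the other 8 arrays shared slide 2 and a scan. On Ctrl replicate 1 69.1% of spots were well above background, against 79.5% and 80.8% on the other Ctrl arrays. The share was 72.3%, 74.8% and 75.6% at 1 dpi and 81.8%, 81.6% and 81.8% at 3 dpi. The arrays at 1 dpi also had the lowest 75th percentiles, at 9.33, 9.45 and 9.43 on the log2 scale, below the 10.03 of Ctrl replicate 1. With the slide as a block, and likewise within slide 2 alone, 7 of the 10 genes were called higher at 1 dpi (Sparcl1 in addition), 9 at 3 dpi and 4 from 1 to 3 dpi.

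Among 21 other matricellular genes, 18 were tested. At 1 dpi 6 of them were called higher and 1 was lower, while 3 dpi had 5 higher and none lower. Of the 13 that were well above background on all 9 arrays 5 were called higher at 1 dpi and 4 at 3 dpi. Over all genes 12.3% and 6.98% were called higher, and 2.87% and 1.82% lower. The median log2 fold change of the 18 genes was 0.63 at 1 dpi and 0.75 at 3 dpi. Spock3 was the gene called lower at 1 dpi, at -1.76 ± 0.39 (SE; adjusted p = 0.00696). Fstl1, a secreted glycoprotein related to follistatin, rose by 2.76 ± 0.11 (SE) at 1 dpi and by 4.31 ± 0.11 at 3 dpi (adjusted p = 1.78e-06 and 2.70e-07). Sparc, a collagen-binding protein of bone, rose by 2.55 and 3.16, Spp1, osteopontin, by 2.66 and 3.10, and Ccn4, another CCN protein, by 2.68 and 3.21 (1.40 and 1.92 with normexp and quantile normalization).

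Of 27 other elastic fibre and microfibril genes 26 were tested, and 12 were called higher at 1 dpi and 10 at 3 dpi, with 0 lower, beside 12.3% and 6.98% of all genes called higher and 2.87% and 1.82% called lower. The median was 0.96 at 1 dpi and 0.77 at 3 dpi. Among them were 3 of the 5 lysyl oxidases, which cross-link elastin and collagen, while Loxl2 was not called (0.80 and 0.53) and Loxl4 was not tested. Loxl1 rose by 2.85 ± 0.13 (SE) and 4.02 ± 0.13 (adjusted p = 3.34e-06 and 5.62e-07), Lox by 2.64 and 3.63, and Loxl3 by 1.36 and 1.56. With normexp and quantile normalization Loxl1 was at 1.23 and 2.27 and Lox at 1.54 and 2.47. The fibulin Efemp2 rose by 2.59 and 3.58, its relative Efemp1 by 1.60 and 3.83 (1.68 at 3 dpi with normexp and quantile normalization), and Ltbp2, a microfibril-associated protein, by 3.09 at 1 dpi (2.01 with the mean of its probes) and 3.46 at 3 dpi.

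Of 16 receptor genes of these proteins, among them integrin chains, syndecans and scavenger receptors, at 1 dpi 2 were called higher and 1 was lower, while 3 dpi had 3 higher and none lower, with medians of 0.02 and 0.30. Over all genes 12.3% were called higher at 1 dpi and 6.98% at 3 dpi, with 2.87% and 1.82% called lower. The 2 of 16 called higher at 1 dpi are thus near the share of all genes. The thrombospondin receptor Cd36 rose by 2.50 ± 0.14 (SE) at 1 dpi and by 2.78 ± 0.14 at 3 dpi (adjusted p = 8.78e-06 and 4.97e-06), and the endocytic receptor Lrp1 by 1.38 and 2.20. Itgb5, a vitronectin receptor chain, rose by 1.12 at 3 dpi, and by 0.9976, under 2-fold, with array medians. Itgb8, an integrin chain that activates latent TGF-β, fell by 3.32 at 1 dpi (SE 0.60, adjusted p = 0.00248), and by 1.67 with the mean of its probes.

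Of 20 YAP/TAZ target genes other than Ccn1 and Ccn2, 18 were tested, and 5 were called higher and 0 lower at either time, or 4 of the 17 that were well above background on all 9 arrays, beside 12.3% and 6.98% of all genes called higher. Ankrd1, among the most used of such targets, was not well above background on any array, and neither was Foxf2. The medians were 0.49 at 1 dpi and 0.50 at 3 dpi. Myof, a membrane repair protein, rose by 2.17 ± 0.08 (SE) and 2.36 ± 0.08 (adjusted p = 1.60e-06 and 7.80e-07), and the growth factor Tgfb2 by 2.02 and 1.59, or 0.64 and 0.53, under 2-fold, with normexp and quantile normalization, and by 2.98 at 3 dpi in the deposited matrix. Igfbp3 rose by 1.02 and Ptpn14 by 1.20 at 1 dpi, and neither was called with quantile normalization (0.98 and 0.81); Ptpn14 was at 0.39 with normexp as well. Ccdc80 rose by 1.45 and the receptor kinase Axl by 1.21 at 3 dpi.

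All 14 megakaryocyte markers were well above background on all 9 arrays and none was called at either time, with medians of 0.03 and -0.01. Beside this, calls over the whole array made up 12.3% (up) and 2.87% (down) at 1 dpi. The shares were 6.98% and 1.82% at 3 dpi, and the medians 0.25 and 0.11. Gata1 stood lower at both times (-0.67 and -0.80) and Tubb1 higher (0.48 and 0.80), under 2-fold but with adjusted p under 0.05. Whether the megakaryocyte content changed was not tested. The intensities of the 14 markers, each divided by the 75th percentile of the array and summed, came to 126.0, 113.7 and 112.4 in Ctrl, 125.0, 114.1 and 112.4 at 1 dpi and 127.4, 126.8 and 125.2 at 3 dpi. The brightest was Pf4, a platelet chemokine. Of the markers, Gp1ba had the largest change at 1 dpi, -0.82, and was called lower with array medians (-1.13, adjusted p = 0.000908), followed by Itga2b, 0.69, which is also among the receptors; at 3 dpi these were Gp6, 0.95, and Gp9, 0.93.

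Of 15 marrow stromal cell markers 10 were called higher at 1 dpi and 10 at 3 dpi, beside 12.3% and 6.98% of all genes. The medians of the markers were 1.52 and 3.50, and their summed intensity was 11.7, 11.5 and 12.0 in Ctrl, 53.9, 46.4 and 50.3 at 1 dpi and 99.5, 90.6 and 97.9 at 3 dpi. The brightest was Cxcl12, the chemokine that holds blood stem cells in the marrow, which rose by 2.71 at 1 dpi; Foxc1 rose by 2.43 at 1 dpi (0.85 with normexp and quantile normalization), and Adipoq by 4.23 and Ebf3 by 4.10 at 3 dpi. Pdgfra (0.86 and 0.41), Kitl (0.28 and 0.33), Cdh11 (0.41 and -0.15) and Pdgfrb (-0.41 and -0.39) were not called at either time. Lepr was called higher at 1 dpi (1.39) and was not called at 3 dpi (0.42). All 15 stromal markers were well above background on all 9 arrays. Their part in the result was not tested.

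Of 6 osteoblast markers 3 were called higher at 1 dpi and 4 at 3 dpi, beside 12.3% and 6.98% of all genes. Bglap, the brightest, rose by 2.54 and 3.75. Their sum was 0.739, 1.09 and 1.05 in Ctrl, 2.42, 2.19 and 2.32 at 1 dpi and 3.87, 3.63 and 3.89 at 3 dpi. Alpl rose by 1.70 at 1 dpi, or 1.11 with normexp and quantile normalization, and with the mean of its probes Bglap rose by 2.43 at 3 dpi. Sp7 (0.88 and 0.64) and Runx2 (0.44 and -0.35) were not called at either time. Dmp1 was well above background on 1 of 3 Ctrl arrays, on none at 1 dpi, where it is nonetheless 1 of the 3 genes called, and on all 3 at 3 dpi. It passed the filter through 3 dpi alone, where its fit gave 3.29, or 0.80, under 2-fold, with normexp and quantile normalization. Without Dmp1 2 and 3 of the 5 osteoblast markers were called. Of 9 endothelial markers 3 and 7 were called higher, beside the same shares of all genes. Cdh5 was up by 1.74 and 2.40, Kdr by 1.23 at 1 dpi and Flt4, well above background on 7 of the 9 arrays, by 2.15 at 3 dpi. Egfl7 (0.53 and 0.19) and Tek (-0.91 and 0.02) were not called at either time. Kdr was at 0.92 with array medians and Flt4 at 0.56 with normexp and quantile normalization, both under 2-fold. Without Flt4, which passed the filter through 3 dpi alone, 2 and 6 of the 8 endothelial markers were called. Their sum, led by Egfl7, was 8.39, 7.77 and 7.95 in Ctrl, 13.6, 12.1 and 12.1 at 1 dpi and 17.4, 14.9 and 15.2 at 3 dpi. The part of these cells in the result was not tested either.

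Of 8 smooth muscle and pericyte markers 3 were called higher at each time, beside 12.3% of all genes at 1 dpi and 6.98% at 3 dpi. Among them were Tagln, by 4.12 and 2.05, and Rgs5, by 1.40 and 1.66 (0.80 at 1 dpi with normexp and quantile normalization). Their sum, most of it from Acta2, was 25.7, 26.3 and 25.8 in Ctrl, 39.6, 36.5 and 35.1 at 1 dpi and 24.4, 28.9 and 28.5 at 3 dpi. Of 10 macrophage markers at 1 dpi 4 were called higher and 1 was lower, the last being Cd163, which fell by 2.07. At 3 dpi 8 were called higher. The shares of all genes called higher are those above, and 2.87% were called lower at 1 dpi. Siglec1 was up by 1.62 and 2.84 and C1qb by 2.51 at 3 dpi. The macrophage sum, led by Csf1r, was 44.8, 39.3 and 37.4 in Ctrl, 66.3, 60.9 and 63.8 at 1 dpi and 117.5, 114.1 and 110.7 at 3 dpi. The part of these cells was not tested.

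Of 8 erythroid markers 7 were called lower at each time, beside 2.87% and 1.82% of all genes, with Ahsp, the brightest, at -7.62 and -2.63. Epb42 was at least 4.06-fold lower at 1 dpi, where it was not well above background (adjusted p = 3.05e-05), and had a log2 fold change of -2.82 at 3 dpi, where 2 of 3 arrays measured it; with normexp and quantile normalization it was at -1.07 at 3 dpi. The erythroid median was -3.62 at 1 dpi, or -2.24 with the 3 genes that have only a bound there at that bound, and -2.14 at 3 dpi. Of the 5 erythroid markers well above background on all 9 arrays 4 were called lower at each time. Of genes of B cells, 5 were called lower at both times, with Vpreb3 at -5.42 and -3.96, Igll1 at -4.70 and -3.43, Vpreb1 at -3.74 and -3.17, Cd79a at -1.53 and -2.22, and Cd79b at -1.28 and -1.52. Pax5 was at 0.56 at 1 dpi (adjusted p = 0.00826) and at -0.17 at 3 dpi, and was not called. Of 8 neutrophil markers 2 were called higher at 1 dpi, S100a8 by 1.14 and S100a9 by 1.02, beside 12.3% of all genes. None was called at 3 dpi, where Ly6g was at -0.64 and S100a8 at 0.17. Neither call at 1 dpi was kept under the other scalings: S100a8 was at 0.42 and S100a9 at 0.24 with quantile normalization, at 0.83 and 0.70 with array medians, and at 0.39 and 0.22 with normexp and quantile normalization.

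The summed level was 9.03, 9.04 and 9.03 in Ctrl, 2.52, 2.09 and 1.997 at 1 dpi and 2.68, 2.64 and 2.55 at 3 dpi for the erythroid list. For the neutrophil list, led by Mpo, it was 997, 1066 and 1054 in Ctrl, 1798, 1670 and 1642 at 1 dpi and 1121, 997 and 1058 at 3 dpi. Their part in the result was not tested.

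**Figure D4:**
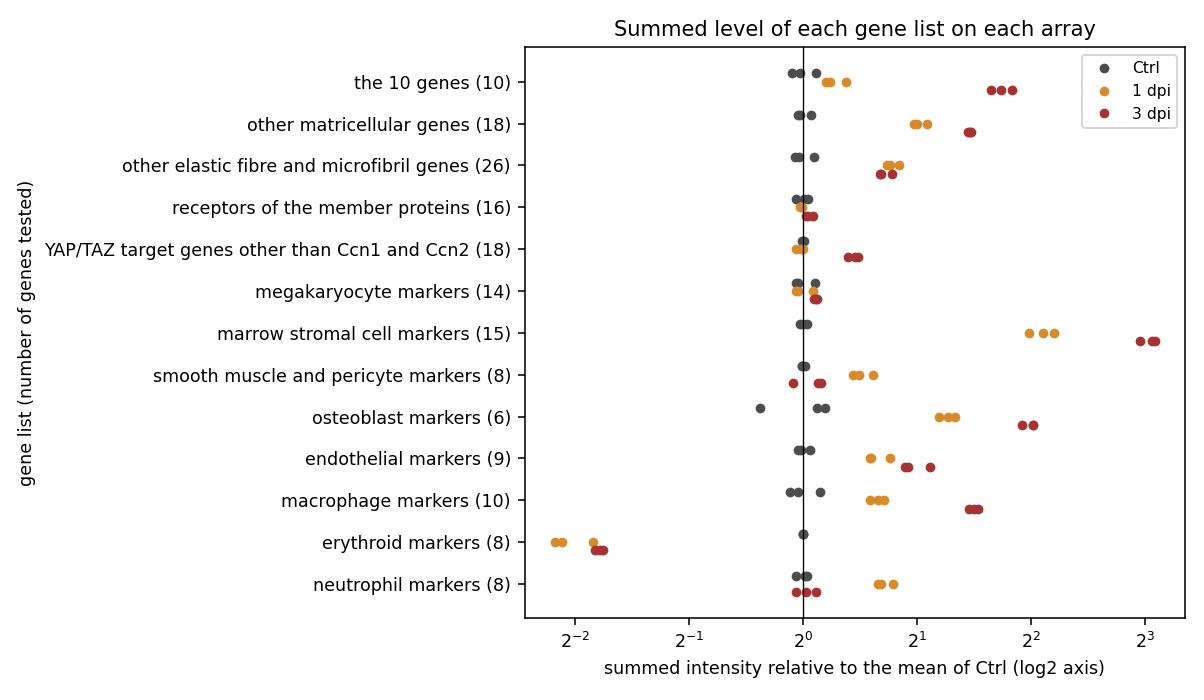
Summed intensity of each gene list on each array, divided by its mean over the 3 Ctrl arrays, on a log2 axis, with the number of genes tested in brackets. Points are arrays. Among the lists drawn the stromal list had the highest sums relative to Ctrl, and the sums of the erythroid list were below Ctrl at both times.

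For each of the 10 genes the gene with the most similar course was sought, by the root mean square difference over the 9 arrays of log2 values minus the Ctrl mean, among genes well above background on all 9 arrays. Fbln5 was nearest to Trem2, a receptor of macrophages, at 0.08, and Sparcl1 to Brd8dc at 0.08. Fn1 was nearest to Galnt9 at 0.10, Ccn2 to Ces2e at 0.10, Fbn1 to Fam20a at 0.12, Postn to Cyp4b1 at 0.12 and Ccn1 to Dpep2 at 0.13. The genes nearest to Tnc and Thbs2, Folr2 and 5430431A17Rik, differed by 0.33 and 0.34. For Eln the nearest was an unnamed transcript, at 0.17.

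Of the 10 genes 6 were matched to the table of RefSeq promoters for GRCm38.p6 used here: Ccn1, Tnc, Postn, Thbs2, Fbln5 and Fbn1. In the 250 bases before the start the letters GGAATG, a core of TEAD sites, occurred on either strand in 1 of the 9 promoters of these 6 genes, that of Ccn1, and in 12.6% of all 32851 promoters. CAGACA, a core of SMAD sites, occurred in 3 of the 9, that of Thbs2 and 1 of the 2 each of Tnc and Fbln5, and in 17.1% of all. TGANTCA, the AP-1 motif, occurred in 0 of the 9 and in 6.75% of all. Those of Ccn1, chr3:145649986-145650235, and Thbs2, chr17:14694263-14694512, both on the minus strand, are shown because they hold such letters in capitals, GGAATG in Ccn1 and CAGACA in Thbs2, each on the opposite strand.
Ccn1: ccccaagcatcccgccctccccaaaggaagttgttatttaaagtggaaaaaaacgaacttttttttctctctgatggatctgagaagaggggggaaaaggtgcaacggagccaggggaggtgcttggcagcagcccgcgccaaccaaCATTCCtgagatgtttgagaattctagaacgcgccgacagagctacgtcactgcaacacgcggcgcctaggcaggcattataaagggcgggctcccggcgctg
Thbs2: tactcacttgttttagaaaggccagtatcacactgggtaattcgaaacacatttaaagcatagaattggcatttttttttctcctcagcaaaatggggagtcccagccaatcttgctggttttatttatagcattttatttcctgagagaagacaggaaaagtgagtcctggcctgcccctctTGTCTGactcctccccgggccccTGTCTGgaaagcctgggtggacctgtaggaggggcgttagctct
In Ccn1 the letters begin 103 bases before the start, and in Thbs2 67 and 44 bases before it.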

How the data were processed

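RNA of sorted mMKs was measured on 9 one-colour Agilent arrays, 3 each for Ctrl, 1 dpi and 3 dpi. The deposited array files hold Cy3 intensities from Agilent Feature Extraction 10.7.1.1, with probe positions in mm9, and the study's methods describe another array type. The authors also deposited a matrix of log2 values: for 27050 of its 27275 gene names the values matched, within 0.1, the quantile normalized log2 intensity of 1 probe of the same gene name, and the medians of its columns lay between 5.79 and 5.87. How that probe was chosen is not given in the sources used here.

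Of 62976 spots per array 3671 control spots and the spots marked as outliers were left out; no spot was saturated. Spots of a probe were averaged, giving 56605 probes, of which 20 were left out for want of an unmarked spot on some array. The background-corrected intensity was put on the log2 scale and the array's 75th percentile subtracted. Kept were probes well above background throughout at least 1 group, and the probe with the highest mean stood for its gene. RefSeq accessions in the files named 32994 probes through the GRCm38.p6 table, and 23611 kept the name in the files. One mean per group was fitted with limma 3.58.1 in R 4.3.3, with the data.table package 1.17.8, over all 9 arrays without covariates, and p was adjusted over all genes, or over all probes for single probes. The fit was tested on simulated data. Figures were drawn with Python 3.11.15 and matplotlib 3.10.9. The number of arrays limits the precision.

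The genes, lists and markers were chosen with earlier results of these data known. The other named genes are, of each list, up to 4 called genes with the largest change against Ctrl at each time. They were taken among genes well above background on the arrays compared. For marker lists they are the 2 with the largest change, whether called or not. Also named are the brightest gene of a list, genes not above background and the nearest gene of each of the 10. Further lysyl oxidases, B-cell genes, other markers and Spock3 were added after seeing the data. No 2 arrays held identical values. Other scalings, background correction, filters, thresholds, the methods' t-test, blocks and left-out arrays were also tried.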

Additional observations from a re-analysis of the deposited data

Results flagged for a closer look

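For 4 of the 10 genes the change after IR differed between the times, by the test of 3 dpi against 1 dpi, in which the same Ctrl arrays cancel. Over all genes 3.97% were called higher and 4.82% lower in this test. Of the 8 genes well above background on all 9 arrays 3 were called. The log2 difference was 2.25 for Tnc (adjusted p = 0.000206), 1.31 for Postn (adjusted p = 0.000104), 2.01 for Fn1 (adjusted p = 1.22e-05) and 1.60 for Thbs2 (adjusted p = 0.0410), with all 3 arrays at 3 dpi above all 3 at 1 dpi in each. For Tnc the other probe gave 0.33 and was not called, and for Postn the other 3 probes gave 0.89, 0.45 and -0.26 and were not called. With the mean of its probes Postn was at 0.60 and was not called. For Fn1 the other 3 probes gave 1.57, 2.70 and 0.83, the last of them not called. Thbs2 passed the filter on dim probes only through 3 dpi, where it is high, so its call is not support for a difference, and the call was lost in 5 of the 9 fits without 1 array. Groups of 3 arrays were not tested for outlying samples.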

How the results depend on the processing

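Of the 10 genes, Ccn2 and Ccn1 kept their calls in the 20 alternatives that gave values for single genes. Eln changed sign in 4: at 3 dpi against Ctrl it was -0.0703 with the slide as a block, -0.0703 within slide 2 and -0.0703 without Ctrl replicate 1, and for 3 against 1 dpi it was 0.46 in the deposited matrix, which holds another probe. Slide 1 holds Ctrl replicate 1 alone. The slide block, slide 2 alone and the fit without that array thus all set it aside and are not separate checks. With normexp and quantile normalization, which change background correction and scaling together, Postn at 1 dpi (0.86), Sparcl1 at 3 dpi (0.92) and Thbs2 (0.67 at 3 dpi, 0.63 from 1 to 3 dpi) were under 2-fold.

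The genes called moved for 1 dpi, 3 dpi and 3 against 1 dpi to 1667, 1147 and 1088 with normexp and quantile normalization, to 16443, 9416 and 13125 by adjusted p alone, to 851, 873 and 483 at 4-fold or more, to 15674, 10523 and 16909 with the methods' t-test unadjusted and to 12626, 7120 and 14319 with it adjusted. Without the filter 4489 were called for 3 against 1 dpi. With probes well above background on all 9 arrays 3133, 1730 and 1776 genes were called, and 6, 8 and 3 of the 10, of which Thbs2 and Eln were not tested. For 3 against 1 dpi, at 4-fold or more, 2 of the 10 genes were higher. Leaving out each array in turn gave 3599 to 5378, 2363 to 2775 and 2269 to 2881 genes, and 6 to 7, 8 to 9 and 3 to 5 of the 10 genes.

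Arrays that share a replicate number did not deviate together, with r from -0.107 to 0.128, so the numbers were not taken as pairs. With the number as a block 4273, 2498 and 2494 genes and 6, 9 and 3 of the 10 were called, Thbs2 from 1 to 3 dpi not being among them (adjusted p = 0.0857).

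The signal over background limits Thbs2, Eln and the dim probes of Tnc and Postn. Sorted cells can carry other cells, whose share was not measured. Ctrl replicate 1 is the sole array of its slide, so slide and replicate cannot be separated. Protein features of the 10 genes were not run.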
